A study of Mus musculus with 14 samples.

Results

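Tumours of mice that received cytotoxic T lymphocytes (CTLs) together with a control rat IgG were compared with tumours of untreated mice, on days 3, 5 and 7 after CTL transfer. The arrays were taken by their labels, which gave 3 arrays for each of the 2 arms, 6 of the 14 arrays of the series. The tumours were B16F10, a transplantable melanoma line of C57BL/6 mice that makes pigment. Untreated mice carried the tumour and received neither cells nor antibody.

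Mice of the IgG arm received CTLs on day 0, which was 9 days after tumour implantation. These cells carried CD90.1, were activated before transfer and recognise gp100, a melanosome protein encoded by Pmel. The control IgG was injected into the peritoneum on day 0 and day 2, and served the study as the control of a blocking antibody against interferon gamma. RNA of 3 tumours was pooled for each IgG array, and RNA of 4 tumours for each untreated array. A further arm of CTLs without antibody (4 tumours per array) and the arm with the blocking antibody (3 tumours per array) entered the same statistical model, which took its estimate of the spread from all 12 arrays of these days. No arm received IgG without CTLs, so effects of the IgG and of the CTLs cannot be told apart in the comparison with untreated tumours. The labels of the arrays give neither the age nor the sex of the mice.

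CTLs that meet their antigen release perforin and granzymes, which kill the target cell, and secrete interferon gamma. Interferon gamma binds a receptor made of Ifngr1 and Ifngr2 and signals through the kinases Jak1 and Jak2, which leads to transcription from gamma-activated sites in DNA and switches on Irf1. Products of these genes load peptides on MHC class I and class II molecules, attack intracellular microbes and recruit further T cells through chemokines. The constant part of IgG is bound by Fc gamma receptors, which sit mainly on macrophages, neutrophils and natural killer cells.

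Between 52.9% and 59.7% of spots were well above background on the 6 arrays, whose 75th percentiles of signal lay between 303 and 495. Levels are given as log2 of the signal minus the array's own 75th percentile, so 0 is a bright spot and about -4 to -6 is near background. On the day 5 array of CTLs alone the lowest signal well above background was -3.21, against -3.92 or lower on the other arrays. All arrays of a day shared 1 slide, so arms were compared on the same slide. An arm held the same place on every slide, and effects of place and of arm cannot be told apart. Each array is a pool, so the p-values say nothing of the spread between mice. They measure how same-day differences among all arms of the statistical model vary over 3 days. The SE of a change rests on that shared estimate, and not on its own 3 same-day differences alone. In whole tumours, fewer cells of a type and less RNA per cell cannot be told apart.

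CTL transfer with IgG came with large increases in a limited set of genes and smaller decreases in a wider set. Of 16878 genes tested, 1279 rose in the IgG arm against untreated tumours (7.58% of those tested) and 1899 fell (11.3%; limma, Benjamini-Hochberg adjusted p under 0.05). More than 2-fold changes were found for 838 of the genes that rose and for 396 of those that fell. More than 4-fold changes were found for 488 and 44. Of the 3178 genes called, 3173 had the same sign on all 3 days, and for 3053 the 3 IgG arrays did not overlap the 3 untreated arrays. Over all genes, called or not, the arms did not overlap for 2043 that were higher and 3605 that were lower with IgG. The median change over all genes tested was -0.0952 on the log2 scale, and that value stands beside the list medians given below. Leaving out 1 day at a time left between 315 and 1203 genes higher and between 222 and 1562 lower, and the lowest counts were those without day 5. With another background correction (normexp) 627 genes were higher and 340 lower, which put 64.8% of the calls above untreated tumours in place of 40.2%. With only the 6 arrays of these arms in the model, 647 were higher and 510 lower (55.9% higher).

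**Figure D1:**
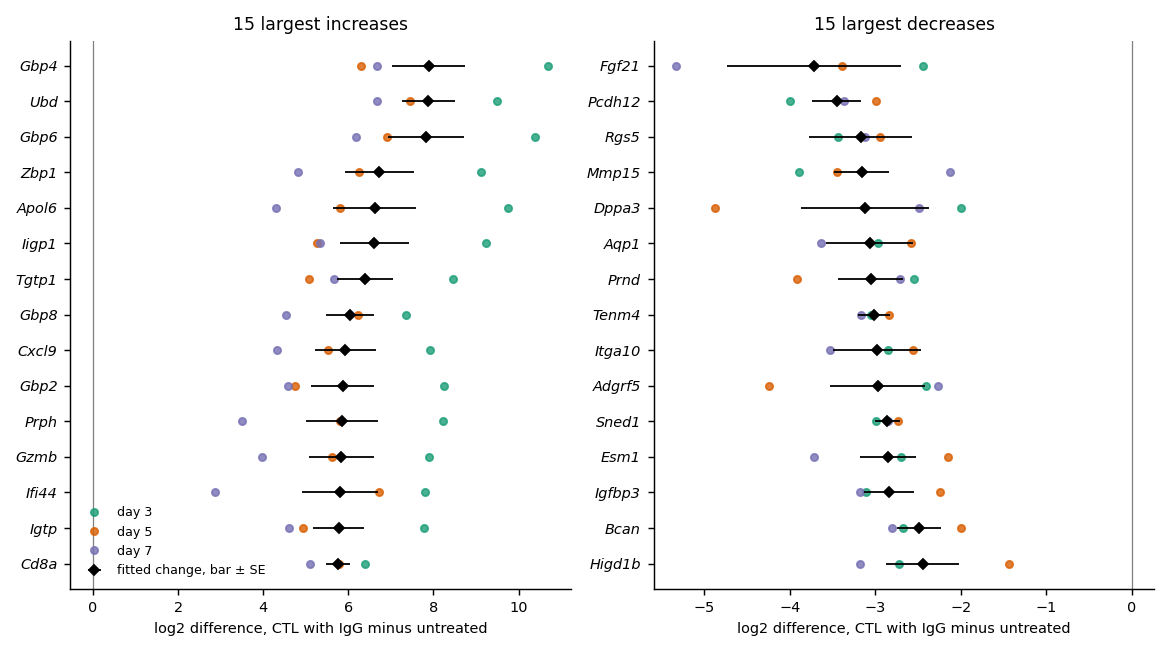
Log2 difference between the CTL with IgG arm and untreated tumours for the 15 genes with the largest increases (left) and the 15 with the largest decreases (right). Coloured points are the same-day differences of days 3, 5 and 7. Black diamonds with bars are the fitted change ± SE of the model. Most increases were largest on day 3, such as 10.7 for Gbp4, while Sned1 and Tenm4 hardly moved between days. The untreated Gbp4 level of day 3 (-6.64) lay below the lowest signal well above background on that array (-4.41).

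The highest increases belonged to guanylate-binding proteins and immunity-related GTPases, large enzymes that coat and break the vacuoles of intracellular microbes. All 16 measured members of the list rose, with a median log2 change of 5.22. Gbp4 had log2 levels of -6.64, -4.18 and -6.50 in untreated tumours on days 3, 5 and 7, and of 4.06, 2.11 and 0.17 in the IgG arm. The arms did not overlap on any day, and the fitted change was 7.89 ± 0.86 (SE of the model, limma, adjusted p = 8.07e-04). In untreated tumours the Gbp4 probe was well above background on 1 of 3 arrays. Its probe lies at chr5:105358363-105358422 (mm8, the build of the array files).

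Gbp6 rose by 7.83 ± 0.90, Tgtp1 by 6.39 ± 0.66 and Gbp2 by 5.86 ± 0.73 on the log2 scale. In untreated tumours Gbp6 was well above background on 1 of 3 arrays, so the size of its change rests partly on undetected signal. Gbp8 was not well above background in untreated tumours and was at least 17.2-fold higher in the IgG arm, where "at least" sets the brighter arm against the lowest detectable signal of the dimmer one. Members of this family resemble each other closely, and their probes may share signal. Igtp (Irgm3) already had log2 levels of 0.60, 2.04 and 0.65 in untreated tumours and reached 8.39, 6.97 and 5.25 with CTLs and IgG. Iigp1, another GTPase of the family, rose by 6.61 ± 0.81. By the probes used, the smallest increase of the list was that of Gbp9, at 2.46 (singled out after its value was seen). A second Gbp9 probe, dimmer and not used, had a difference of 5.56. That probe was not well above background in untreated tumours.

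Members of this family are known targets of interferon gamma, so the promoters of the genes at either end of the ranking are shown where the promoter table held them. RefSeq sequences (GRCm38.p6) were matched by symbol for 9 of the 15 genes named as highest and 12 of the 15 named as lowest. In 300 bases around each start, both strands were searched for TTCNNNGAA, the gamma-activated site, and GAAANNGAA, the core of the interferon-stimulated response element. The promoters of Igtp (chr11:58199306-58199555, plus strand), Tgtp1 (chr11:48992247-48992496, minus strand), Gbp2 (chr3:142620413-142620662, plus strand), Cxcl9 (chr5:92328080-92328329, minus strand) and Ubd (chr17:37193642-37193891, plus strand) stand for the genes that rose. Fgf21 (chr7:45615491-45615740, minus strand) stands for those that fell. Each is the 250 bases before the start, 5′ to 3′ along the gene, with matches in capitals.
Igtp: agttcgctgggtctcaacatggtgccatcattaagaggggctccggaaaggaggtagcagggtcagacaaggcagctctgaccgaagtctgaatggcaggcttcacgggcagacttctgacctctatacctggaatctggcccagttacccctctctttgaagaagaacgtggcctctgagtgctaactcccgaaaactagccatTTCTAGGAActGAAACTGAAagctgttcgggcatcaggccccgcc
Tgtp1: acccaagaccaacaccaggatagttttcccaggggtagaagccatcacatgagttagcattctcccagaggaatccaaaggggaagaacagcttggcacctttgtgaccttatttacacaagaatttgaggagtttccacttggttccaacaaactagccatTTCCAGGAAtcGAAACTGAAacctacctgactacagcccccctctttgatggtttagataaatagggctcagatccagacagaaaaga
Gbp2: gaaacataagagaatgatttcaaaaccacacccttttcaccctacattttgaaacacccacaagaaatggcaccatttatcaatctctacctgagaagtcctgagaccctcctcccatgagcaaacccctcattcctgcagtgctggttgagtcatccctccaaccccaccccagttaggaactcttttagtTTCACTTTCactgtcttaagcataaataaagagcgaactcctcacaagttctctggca
Cxcl9: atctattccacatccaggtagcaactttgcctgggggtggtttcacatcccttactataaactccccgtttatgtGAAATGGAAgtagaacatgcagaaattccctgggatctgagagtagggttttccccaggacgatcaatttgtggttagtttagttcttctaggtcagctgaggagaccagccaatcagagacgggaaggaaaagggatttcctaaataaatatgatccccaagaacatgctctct
Ubd: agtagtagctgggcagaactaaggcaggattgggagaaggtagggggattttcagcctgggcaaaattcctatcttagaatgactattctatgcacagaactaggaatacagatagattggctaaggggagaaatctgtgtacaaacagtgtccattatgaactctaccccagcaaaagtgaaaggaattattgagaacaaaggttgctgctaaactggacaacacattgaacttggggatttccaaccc
Fgf21: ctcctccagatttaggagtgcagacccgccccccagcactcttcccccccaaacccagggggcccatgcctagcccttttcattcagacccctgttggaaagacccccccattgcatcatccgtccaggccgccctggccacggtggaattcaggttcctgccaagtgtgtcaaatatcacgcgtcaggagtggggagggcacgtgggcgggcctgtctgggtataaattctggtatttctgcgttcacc

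Igtp and Tgtp1 held both motifs, the gamma-activated site first and the response element core 11 bases further on. Over 30 bases that begin 10 bases before the gamma-activated site, the Igtp and Tgtp1 promoters were identical at 27. Gbp2 and Cxcl9 held the response element core alone, and Ubd and Fgf21 held neither motif in this window. Of the 9 genes that rose, 5 had a promoter with the core and 3 with the gamma-activated site. Of the 12 genes that fell, 1 had the core and 1 the gamma-activated site. A gene was counted if any of its promoters matched, and Adgrf5, Prnd and Tenm4 had more than 1. The shares given next count promoters and not genes. Over all 32851 promoters of the table, 8.56% held the core, 8.30% the gamma-activated site and 1.07% both. These are descriptions of sequence, with no test.

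The signalling chain of interferon gamma itself changed unevenly. Ifng rose: its log2 levels were -4.96, -4.32 and -6.05 in untreated tumours and 2.05, 0.36 and -1.62 in the IgG arm, a fitted change of 5.38 ± 0.56 (limma, adjusted p = 6.57e-04). Every IgG array lay above every untreated array, of which 1 was well above background. The receptor chains did not follow. Ifngr1 fell by 0.52 ± 0.12 on the log2 scale (adjusted p = 0.0185), and Ifngr2 had a change of -0.14 ± 0.16 (adjusted p = 0.566).

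Downstream, the transcription factor Irf1 rose by 4.17 ± 0.51 on the log2 scale. Irf1 had log2 levels of 2.09, 2.55 and 2.06 in untreated tumours and of 7.75, 6.35 and 5.11 in the IgG arm. Irf8, a regulator of myeloid cells that interferon gamma also induces, rose by 5.32 ± 0.55, and Ciita, the master regulator of MHC class II, by 5.73 ± 0.49. Jak1 (0.29) and Jak2 (0.60), looked up after the values were seen, were not called. Of 21 measured genes of the pathway, 15 rose and 1 fell, with a median log2 change of 1.97. Without day 5 the count of pathway genes that rose was 5, and Irf1 was not among them (adjusted p = 0.0528). Ifngr1 was not called without any 1 day (adjusted p of 0.0559 to 0.168).

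Interferon-stimulated genes of antiviral defence rose with them: 23 of 25 measured members were higher and none was lower, with a median log2 change of 3.36. Zbp1, a sensor of Z-form nucleic acids that can trigger cell death, had untreated log2 levels of -2.85, -1.20 and -1.63 and IgG levels of 6.26, 5.04 and 3.20. Oasl2 rose by 5.56 ± 0.52, Usp18, which removes the ubiquitin-like Isg15 from proteins, by 4.46 ± 0.36, and Rtp4 by 4.03 ± 0.35. Ifi44 was not well above background in untreated tumours and was at least 18.6-fold higher. Mx1 (3.66) and Isg20 (0.88) were the 2 members not called, named here for that reason. Without day 5, 8 members of the list rose, and Zbp1 missed the threshold (adjusted p = 0.0533).

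RNA of most genes of antigen presentation by MHC class I and class II was higher on all days. Of 25 measured genes of class I and peptide loading, 21 rose and 3 fell, with a median of 2.77. Of 13 measured class II genes, 9 rose and none fell, with a median of 4.40, and this count was 9 in each of the fits that left out a day. H2-Ab1, the beta chain of the class II molecule I-A, had the lowest adjusted p of all genes. Its log2 levels were 0.62, 0.77 and -0.24 in untreated tumours and 5.17, 5.43 and 4.17 in the IgG arm, a change of 4.54 ± 0.09 (limma, adjusted p = 3.11e-07).

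H2-Aa rose by 4.87 ± 0.16, H2-Eb1 by 4.38 ± 0.15 and Cd74, the invariant chain that guides class II molecules, by 4.41 ± 0.14. The class I heavy chains H2-K1 and H2-D1 rose by 2.81 ± 0.13 and 2.77 ± 0.12, from log2 levels that were already between 4.05 and 4.87 in untreated tumours. Class I genes are near-identical copies, and their probes may share signal. The subunits that turn the proteasome into the immunoproteasome rose most: Psmb9 by 5.31 and Psmb8 by 5.25, and the peptide transporter Tap1 by 4.14. None of 14 constitutive proteasome subunits was called, with a median of 0.23. The 3 class I members that fell were the general chaperones Canx (-0.70), Calr (-0.60) and Pdia3 (-0.46). Without day 3, day 5 and day 7 the class I members called lower numbered 1, 0 and 2, and with normexp 0. The last 6 genes named from Psmb9 on were picked after their values were seen.

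**Figure D2:**
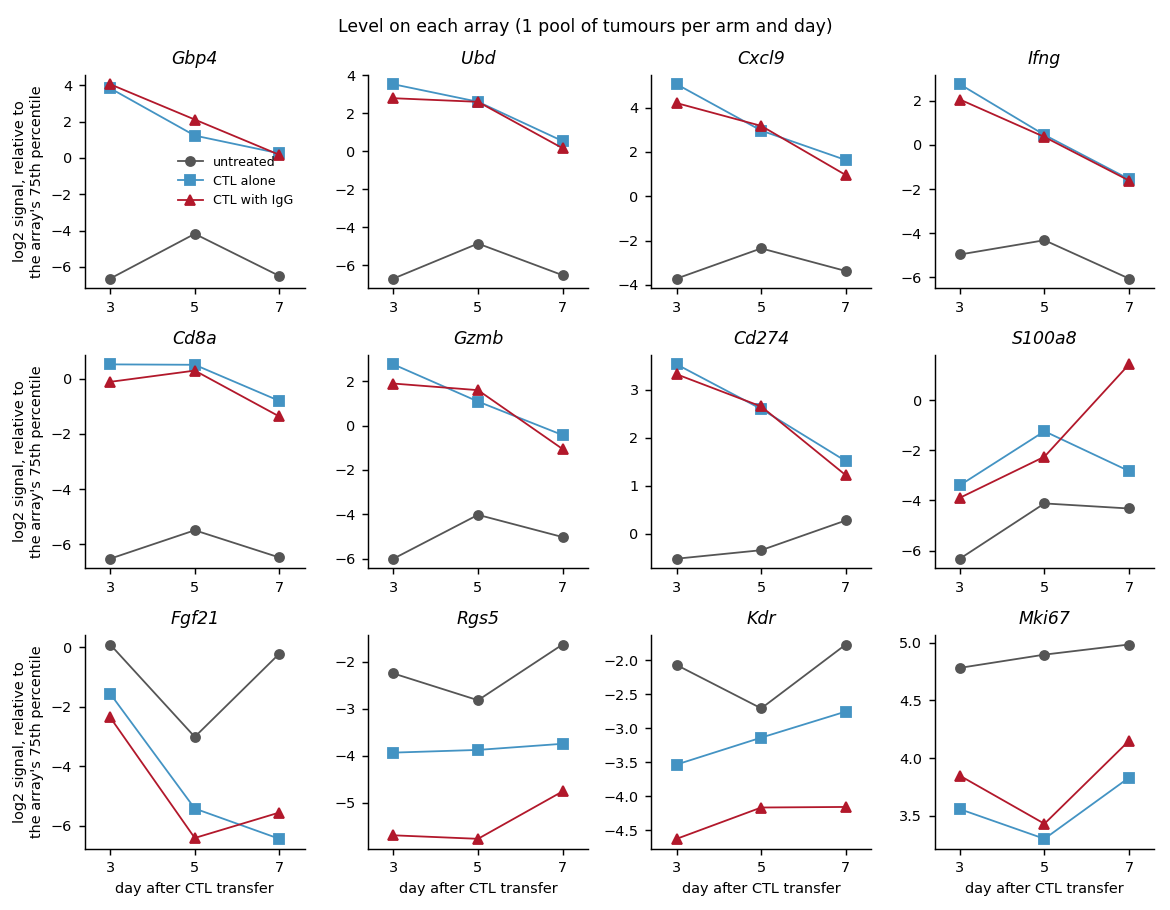
Log2 level of 12 genes on each array, relative to the array's 75th percentile, against the day after CTL transfer; grey circles are untreated tumours, blue squares CTLs alone and red triangles CTLs with IgG, 1 array each. Gbp4, Ubd, Cxcl9, Ifng, Cd8a and Gzmb lay above untreated tumours on every day in both CTL arms, S100a8 was highest on the day 7 IgG array at 1.43, and levels below about -4 are near background.

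Genes of T cells rose. Of 26 measured T cell genes, 20 rose and none fell, with a median log2 change of 2.81. Cd8a, a chain of the co-receptor of cytotoxic T cells, had log2 levels of -6.51, -5.49 and -6.47 in untreated tumours, none well above background. In the IgG arm its levels were -0.12, 0.29 and -1.37, which was at least 15.9-fold higher (adjusted p = 2.79e-05). Cd8b1 rose by 4.43 ± 0.37 and Il2rb by 4.19 ± 0.38 on the log2 scale. A second Cd8b1 probe, dimmer and not used, had a difference of -0.99.

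Not all T cell genes moved with Cd8a. Cd4 had a change of -0.07 and Cd3e of 0.23, and neither was called; both were singled out after their values were seen. Thy1, which encodes CD90, rose by 1.32 ± 0.37 (adjusted p = 0.0411), with same-day differences of 1.69, 2.06 and 0.22. The array does not tell the CD90.1 of the transferred cells from the CD90 of the host. Thy1 was not called without day 3 or day 5 (adjusted p of 0.228 and 0.340). Without day 5, 7 T cell genes were called higher.

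Cytotoxic effectors had a median log2 change of 3.87, with 13 of 16 measured members higher and none lower. Gzmb, the protease granzyme B, had untreated log2 levels of -6.00, -4.03 and -5.03, and 1.89, 1.59 and -1.06 in the IgG arm. In untreated tumours Gzmb was well above background on 1 of 3 arrays, the arms did not overlap, and the change was 5.83 ± 0.76 (adjusted p = 1.74e-03). Prf1, the pore protein perforin, was not well above background in untreated tumours and was at least 6.31-fold higher. Nkg7 rose by 4.93 ± 0.37 and Ltb by 4.42 ± 0.25. With low untreated members set at their bounds the median of the list was 2.86, and without day 5 the count of higher members was 5, Gzmb not included (adjusted p = 0.0613).

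Natural killer genes were near the limit of detection, and the count of higher members given next was 2 without day 5 and 0 with normexp. Of 5 measured members 4 rose, but each of these was not well above background in untreated tumours, and with bounds the median change was 0.36. Klrb1c was at least 1.28-fold higher and Cd244a at least 3.48-fold. Klra3 had a change of 0.22 ± 0.54. B cell genes showed 2 of 7 measured members higher, Blnk (1.30 ± 0.33) and Cd22 (0.54 ± 0.16), of which Blnk is also made by macrophages. Without day 3 the count was 1, and without day 5 or day 7 it was 0. The B cell marker Cd79a was not called and was not well above background on any IgG array.

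Inhibitory and costimulatory receptors of T cells and their ligands rose, 12 of 13 measured members, with a median of 1.87. Pdcd1, which encodes PD-1, rose by 2.39 ± 0.35 (well above background on 1 of 3 untreated arrays) from log2 levels of -5.09, -4.48 and -3.86 in untreated tumours. Its ligand Cd274 (PD-L1) had levels of -0.52, -0.34 and 0.28 in untreated tumours and of 3.32, 2.65 and 1.22 in the IgG arm, a change of 2.59 ± 0.50 (adjusted p = 0.0100). The Cd274 difference thus went from 3.83 on day 3 to 0.94 on day 7. Tnfrsf14 was at least 6.48-fold higher, Tnfrsf18 (GITR) rose by 2.49 ± 0.29 and Havcr2 (TIM-3) by 1.38 ± 0.15. Without day 3 the count of higher members was 4, and without day 5 it was 3. Neither count included Cd274 (adjusted p of 0.101 and 0.174) or Pdcd1 (0.0544 and 0.0827).

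Of 25 measured chemokine ligands 12 rose and none fell, with a median of 2.02. Cxcl9, a ligand of the chemokine receptor Cxcr3 of T cells that interferon gamma induces, had log2 levels of -3.71, -2.35 and -3.37 in untreated tumours and of 4.21, 3.18 and 0.96 in the IgG arm. Its change was 5.92 ± 0.72 (adjusted p = 1.26e-03, and 0.0507 without day 5). The other ligands of Cxcr3 had their largest differences on day 3 and were not called. Cxcl10 had same-day differences of 4.07, 1.47 and 0.51 (fitted 2.02 ± 0.80, adjusted p = 0.118). Cxcl11 had 5.50, 2.28 and 0.09 (fitted 2.62 ± 1.12, adjusted p = 0.145).

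Xcl1, which attracts cross-presenting dendritic cells, was at least 8.79-fold higher, and Ccl5 and Cxcl16 rose by 3.16 ± 0.33 and 3.45 ± 0.19. Among 11 measured chemokine receptors 5 rose, including Ccr2 (at least 4.16-fold), which brings monocytes from blood. Cxcr3 was the only receptor called lower, at -0.75; it was singled out after its value was seen and was not called without day 3 or day 5 (adjusted p of 0.176 and 0.236). Without day 5, 4 ligands and 4 receptors were called higher, and with normexp 2 receptors were.

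Genes of monocytes and macrophages rose in 21 of 29 measured members and fell in 2, with a median of 1.88. The summed signal of the list ranged from 182 to 212 times the array's 75th percentile in untreated tumours and from 219 to 298 in the IgG arm. Slamf8 was at least 37.0-fold higher, and Msr1, a scavenger receptor, rose by 2.93 ± 0.20. Aif1 (IBA1) had log2 levels of -0.66, -0.31 and -0.04 in untreated tumours and of 2.47, 3.67 and 2.79 in the IgG arm. Chil3 (-0.91) and Tlr4 (-0.70) were the members called lower. Without day 5, 9 members of the list were called higher. Arg1, the arginase of suppressive myeloid cells, rose by 3.14 ± 0.58 (adjusted p = 8.34e-03, and 0.138 without day 5), while Ido1 was not well above background in untreated tumours and was not called (adjusted p = 0.0882).

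The Fc gamma receptors, which bind the constant part of IgG, rose in both CTL arms. Of 10 measured genes of the list, which also holds their signalling partners, 8 rose and none fell, with a median of 2.20. Fcgr4 had log2 levels of -2.68, -2.77 and -2.34 in untreated tumours and of 1.43, 1.31 and 0.42 in the IgG arm, a change of 3.65 ± 0.30. Fcgr1 rose by 3.26 ± 0.22, Fcgr3 by 2.54 ± 0.16 and the inhibitory receptor Fcgr2b by 1.91 ± 0.13. The shared signalling chain Fcer1g rose by 2.37 ± 0.25. Trim21, an intracellular receptor of antibody, rose by 2.58 ± 0.36, and Fcgrt, the neonatal receptor that recycles IgG, had a change of 0.03 ± 0.21.

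CTLs without IgG gave Fcgr4 4.00, Fcgr1 3.56, Fcgr3 2.89 and Fcgr2b 1.91 against the same untreated arrays. The direct difference between the arms with and without IgG was -0.35, -0.29, -0.35 and -0.0024 for these receptors, and no member of the list was called in it (lowest adjusted p = 0.283).

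Complement genes rose in 12 of 19 measured members, with a median of 1.54. C4b rose by 4.03 ± 0.22, and the chains of C1q, which macrophages make and which binds antibody on cells, rose by 1.95 ± 0.24 (C1qa), 1.54 ± 0.18 (C1qb) and 1.94 ± 0.23 (C1qc). Dendritic cell genes rose in 6 of 15 members, among them Cd40 (at least 4.73-fold), Ccr7 (at least 2.90-fold) and Cd83 (1.98 ± 0.17). The median of that list was 0.62, and 12 of its changes were positive. Its members Zbtb46 and Xcr1, picked after their values were seen, had changes of -0.02 and 0.03. With normexp 3 dendritic cell genes were called higher, not including Ccr7 (adjusted p = 0.254) or Cd40 (adjusted p = 0.058). Without day 5, 3 complement members were called higher.

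Neutrophil genes rose in 5 of 8 measured members, with median differences of 2.24, 2.30 and 3.46 on days 3, 5 and 7. The differences of S100a8 and S100a9 were largest on day 7. S100a8, an abundant protein of neutrophils and activated monocytes, had log2 levels of -6.33, -4.12 and -4.32 in untreated tumours, and of -3.90, -2.25 and 1.43 in the IgG arm. It was well above background on 1 untreated and 2 IgG arrays. Its change was 3.35 ± 0.96 (adjusted p = 0.0447), with a same-day difference of 5.75 on day 7 alone. S100a9, its partner, had same-day differences of 2.51, 1.11 and 6.00 and was not called (3.21 ± 1.22, adjusted p = 0.108). The summed signal of the list ranged from 3.59 to 57.1 in the IgG arm, and 5 of 8 members were highest there on day 7. Il1b rose by 4.65 ± 0.92, Clec4d by 2.92 ± 0.35 and Mmp8 by at least 3.79-fold. Without day 7 the S100a8 change was 2.15 (adjusted p = 0.0718), and it was not called without day 3 or day 5 either. Without day 7, 4 members were called, and without day 5, 1 was.

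Genes of cell death rose in 15 of 28 measured members and fell in none. The members with the smallest p were Casp12 (4.85 ± 0.41), Casp1 (3.03 ± 0.26), the inflammatory caspase that cuts interleukin 1 beta, Pmaip1 (at least 4.47-fold), which encodes NOXA, and the inhibitor of apoptosis Birc3 (1.75 ± 0.22). The initiator caspases Casp8 and Casp9 had changes of 0.56 and 0.20, and both, picked after their values were seen, were not called. Without day 5, 3 members of the list rose.

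Pigment genes of the melanoma cells were nearly level. Of 24 measured genes of the melanocyte lineage 1 rose and 3 fell, with a median of -0.07. Pmel, which encodes the antigen of the CTLs, had log2 levels of 8.69, 8.35 and 8.87 in untreated tumours and of 8.57, 8.77 and 8.56 in the IgG arm. The arms overlapped, and the change was 0.00 ± 0.18 (adjusted p = 0.990). Tyr, the first enzyme of melanin synthesis, had -0.59 ± 0.27 (adjusted p = 0.175) and Mitf, the lineage's transcription factor, 0.24 ± 0.23 (adjusted p = 0.526). The gene that rose was Cited1 (1.72 ± 0.21), a transcriptional co-activator, and those that fell were the receptors Kit (-1.54 ± 0.18), Erbb3 (-1.30 ± 0.16) and Ednrb (-0.84 ± 0.23).

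Among the genes that fell, those of blood vessels stood out in number. Of 27 measured endothelial genes 18 fell and 1, Icam2 (0.63, named for that reason), rose, with a median log2 change of -1.17. Kdr, the main receptor of vascular endothelial growth factor, had log2 levels of -2.07, -2.71 and -1.77 in untreated tumours and of -4.63, -4.17 and -4.16 in the IgG arm. No IgG array showed it well above background, and it was at least 3.63-fold lower (adjusted p = 9.18e-04). Esm1, a marker of endothelial tip cells, had levels of 1.54, 1.38 and 2.30 against -1.16, -0.76 and -1.41, a change of -2.85 ± 0.33. Emcn fell by 1.79 ± 0.17 and Angpt2, an antagonist of the receptor Tek, by 1.17 ± 0.12 on the log2 scale.

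Cdh5, the cadherin of endothelial junctions, was not well above background on any IgG array and was at least 3.16-fold lower, and Flt1 fell by 1.06 on the log2 scale. Pecam1 (-0.42 ± 0.39, adjusted p = 0.502), Vwf (0.20), Eng (0.07) and Tek (0.31) were not called. Cdh5, Flt1, Vwf, Eng and Tek were picked after their values were seen. The median of the list was -1.29 on day 3, -0.94 on day 5 and -0.97 on day 7. Leaving out a day left 9, 10 and 13 members lower (without day 3, day 5 and day 7), and with normexp background correction 8 were lower. Kdr (-0.82, adjusted p = 0.116) and Cdh5 (-0.68, adjusted p = 0.343) were not called with normexp, and Cdh5 was not called without day 5 (adjusted p = 0.0603).

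**Figure D3:**
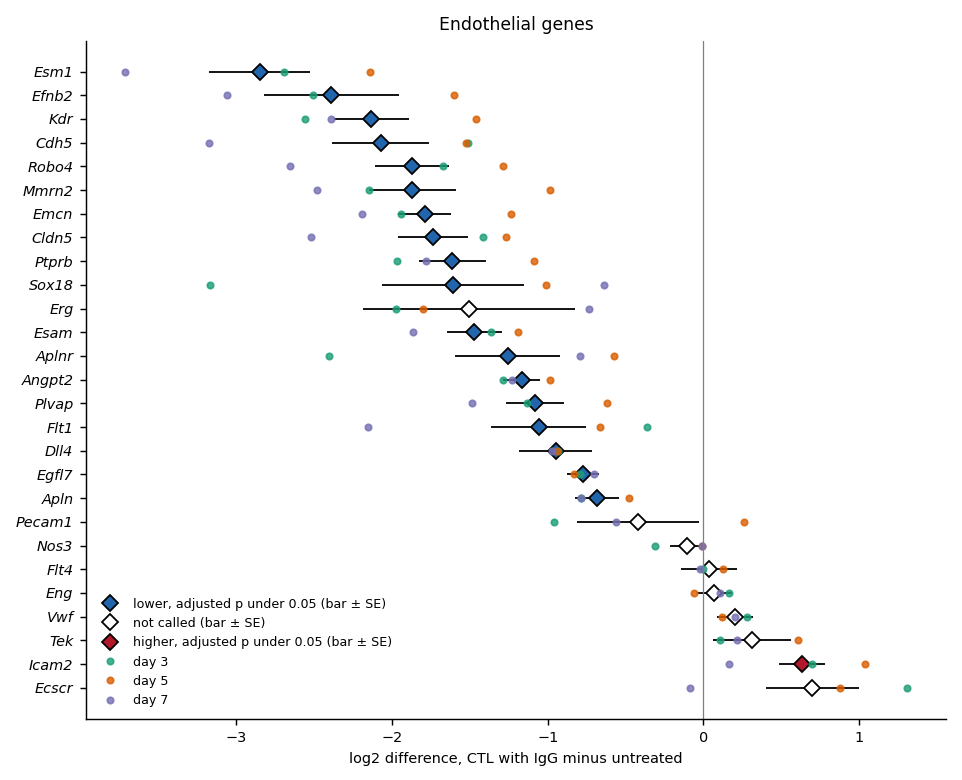
Log2 difference between the CTL with IgG arm and untreated tumours for the 27 measured endothelial genes. Diamonds with bars are the fitted change ± SE of the model, blue where lower, red where higher and white where not called. Small points are the same-day differences. The 18 lower genes run from Esm1 at -2.85 to Apln at -0.68, while Pecam1 (-0.42), Vwf (0.20) and Eng (0.07) were not called.

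The single genes with the largest decreases included other genes of vessel walls. Rgs5, a marker of pericytes, had log2 levels of -2.25, -2.82 and -1.64 in untreated tumours and of -5.69, -5.77 and -4.76 in the IgG arm. No IgG array showed it well above background, and it was at least 3.49-fold lower (adjusted p = 9.17e-03). Rgs5 was not called without day 5 or day 7 (adjusted p of 0.0781 and 0.0682). Pcdh12, an endothelial protocadherin, was at least 4.03-fold lower, Higd1b at least 1.93-fold and Adgrf5 at least 1.71-fold. Aqp1, a water channel of capillaries, fell by 3.07 ± 0.51 on the log2 scale. Aqp1 was not called without day 3 or day 7 (adjusted p of 0.0501 and 0.0617), nor Higd1b without day 3 (0.116), nor Adgrf5 without day 5. With normexp background correction the changes of Rgs5 (-0.83), Pcdh12 (-1.02), Higd1b (-0.50) and Adgrf5 (-0.78) were smaller and not called (adjusted p of 0.333, 0.0898, 0.630 and 0.329).

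Other genes with the largest decreases were of several kinds. Fgf21, a hormone made under metabolic stress, had levels of 0.09, -3.01 and -0.22 in untreated tumours and of -2.36, -6.40 and -5.55 in the IgG arm. It was well above background on 1 of 3 IgG arrays. The arms overlapped, since the day 5 untreated array lay below the day 3 IgG array, and the change was -3.72 ± 1.02 (adjusted p = 0.0378). Fgf21 was not called without any 1 day (adjusted p of 0.0544 to 0.199). Tenm4, a cell adhesion protein of the teneurin family, fell by 3.02 ± 0.18 and Igfbp3, which binds insulin-like growth factors, by 2.84 ± 0.29. Mmp15, a membrane-bound metalloprotease, was at least 2.78-fold lower, Dppa3 at least 2.66-fold, Prnd at least 2.43-fold, Bcan at least 3.16-fold and Itga10 at least 1.64-fold. With normexp none of these 5 was called, with changes between -1.10 and -0.69 and adjusted p of 0.165 to 0.408.

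Sned1, an extracellular matrix protein, changed by similar amounts on all 3 days. Its log2 levels were -0.10, -0.35 and -0.10 in untreated tumours and -3.09, -3.09 and -2.95 in the IgG arm, a fall of 2.86 ± 0.15 (adjusted p = 3.77e-05). Of 24 measured genes of collagens, matrix and fibroblasts 8 fell and 2 rose, with a median of -0.67. The collagens of basement membranes Col4a1 and Col4a2 fell by 1.96 ± 0.17 and 1.54 ± 0.13. The fibrillar collagen genes Col1a1 (-0.82), Col1a2 (-0.45) and Col3a1 (-1.04), picked after their values were seen, were not called. S100a4 rose by 1.78 ± 0.22. Without day 3, 3 genes of this list were called lower. Metalloproteases split, with 7 of 22 lower, among them Adamts20 (-2.08 ± 0.23) and Adam12 (at least 3.53-fold), and 4 higher, among them Mmp13 (2.48 ± 0.32). Without day 5 these counts were 3 and 1, and with normexp 2 and 2, where Adam12 was not called (adjusted p = 0.337).

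RNA of genes of sterol and fatty acid synthesis was lower by a small amount. All 27 measured genes had a negative change, 15 of them called, with a median of -0.51. Srebf2, the transcription factor of the sterol pathway, had log2 levels of 5.17, 4.95 and 5.17 in untreated tumours and of 4.44, 4.11 and 4.18 in the IgG arm, a fall of 0.86 ± 0.09. Its targets Insig1 and Msmo1 fell by 0.86 ± 0.11 and 0.76 ± 0.10. Leaving out day 3 or day 5 left 2 and 1 members called.

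Genes of cell division depended on the day. Of 36 measured genes of mitosis 8 fell, and of 36 of DNA replication 1 fell, Rrm1 (-0.50 ± 0.14), with none higher in either list. The median for mitosis was -0.52 on day 3, -0.89 on day 5 and 0.05 on day 7, and that for replication was -0.55, -0.74 and 0.16. Mki67, which encodes the proliferation marker Ki-67, had levels of 4.78, 4.90 and 4.98 in untreated tumours and of 3.85, 3.43 and 4.15 in the IgG arm, a fall of 1.08 ± 0.14 (adjusted p = 1.66e-03). Within the IgG arm, 36 of 36 mitosis genes and 35 of 36 replication genes were highest on day 7. Without day 7, 22 mitosis genes and 21 replication genes were called lower, and without day 3 or day 5, 1 mitosis gene and no replication gene was. The kinase inhibitor Cdkn1a had a change of -0.19 ± 0.17 (adjusted p = 0.465).

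**Figure D4:**
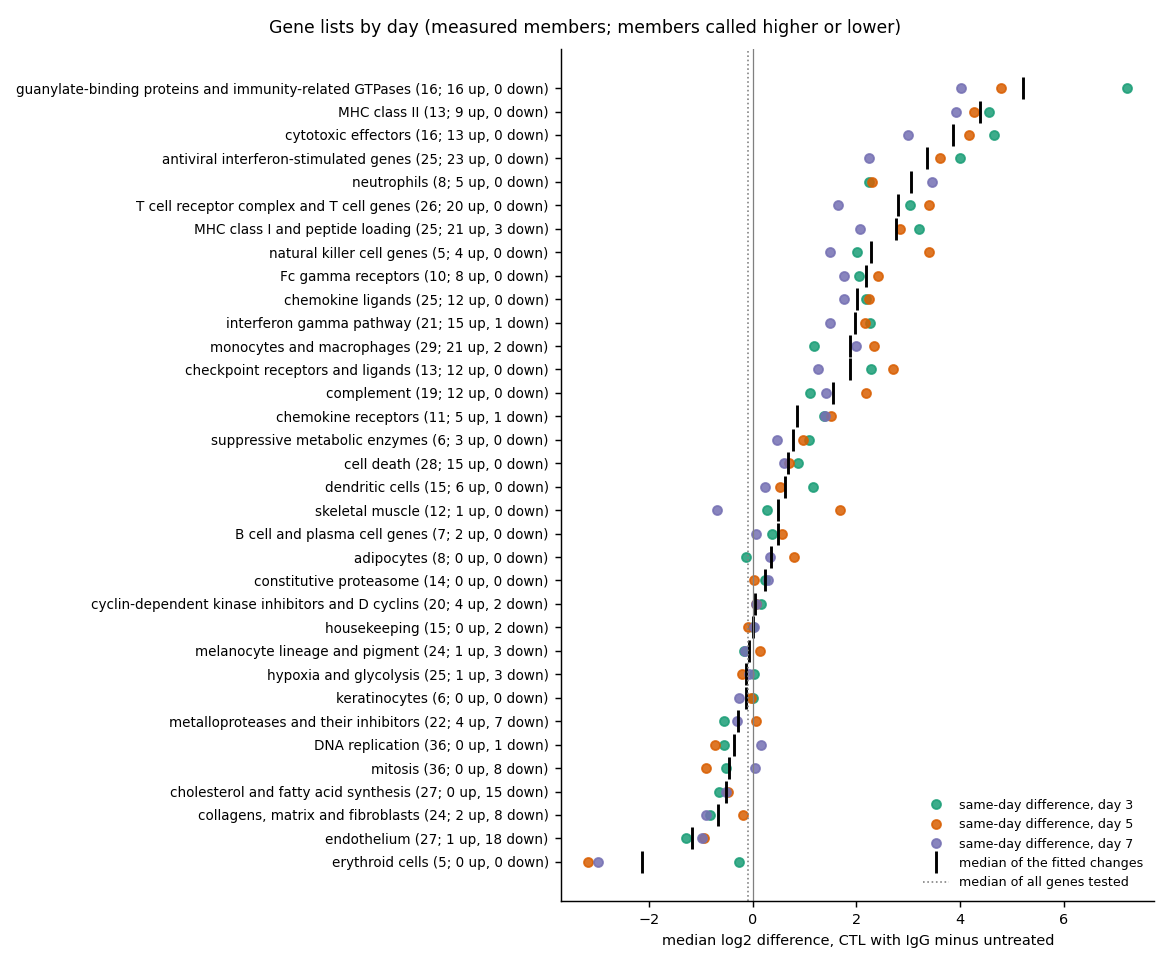
Median log2 difference between the CTL with IgG arm and untreated tumours of the measured members of each of 34 gene lists; coloured points are the medians on days 3, 5 and 7, the black bar is the median of the fitted changes, and the dotted line is the median of all genes tested, -0.0952. In brackets stand the members measured and those called up or down; the guanylate-binding proteins lead at 5.22 and erythroid genes are lowest at -2.14 with none called.

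Cell types that a tumour sample can hold by chance were read from their markers. Erythroid genes had a median of -2.14, with no member called among 5; without day 3, 3 of the 5 were called lower. The haemoglobin gene Hba-a1 had levels of 5.11, 7.29 and 8.66 in untreated tumours and of 4.80, 4.12 and 5.54 in the IgG arm (-2.20 ± 0.73, adjusted p = 0.0704). The erythroid medians were -0.27, -3.17 and -2.99 on days 3, 5 and 7, beside the lower endothelial genes. The part of blood content in the other results was not tested. None of 6 keratinocyte and none of 8 adipocyte genes was called, and 1 of 12 muscle genes was (Tnni2, 1.31 ± 0.37). Of 15 housekeeping genes 2 fell, Tfrc (-1.04 ± 0.14) and Gusb (-0.74 ± 0.13), with a median of 0.01, and neither was called without day 3 or without day 5.

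Untreated tumours of day 5 stood above those of days 3 and 7 for many genes of some lists that CTLs raised, but not of others. These counts include members that were not well above background in untreated tumours, whose order carries no weight. Among the 16 guanylate-binding proteins and GTPases, 11 had their highest untreated level on day 5, and of 25 class I genes 18 did. T cell genes did not share this order, with 18 of 26 highest in untreated tumours on day 7. Nor did antiviral genes (6 of 25 highest on day 5), macrophage genes (5 of 29) or cytotoxic effectors (6 of 16). The share over all genes was not counted. The day 5 untreated array was also the highest untreated array for 33 of 36 replication genes and 30 of 36 mitosis genes. Ubd, a ubiquitin-like protein that interferon gamma and tumour necrosis factor induce, was not well above background in untreated tumours (-6.70, -4.86 and -6.52). Its IgG levels of 2.78, 2.59 and 0.16 were at least 75.5-fold higher (adjusted p = 2.27e-04), and its probe lies on chromosome 17.

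Differences between the IgG arm and untreated tumours tended to shrink with time for interferon genes, but no slope passed the test. For 15 of 16 guanylate-binding proteins and GTPases the same-day difference was largest on day 3, with medians of 7.23, 4.80 and 4.03 over the days. Antiviral genes had medians of 4.00, 3.61 and 2.25, and 22 of 25 were largest on day 3. Class II genes had 4.56, 4.28 and 3.93. Macrophage genes had 1.19, 2.33 and 2.00, with 23 of 29 largest on day 5. In the test of a straight trend over days 3, 5 and 7, 0 of 16878 genes were called (0%; limma, lowest adjusted p = 0.119), and 1277 had an unadjusted p under 0.05. With an intensity trend in limma's prior 45 slopes were called, all downward, and with normexp background correction 126, of which 122 were downward.

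Of the 122 named genes that were called against untreated tumours, 62 were called under every alternative setting and none changed sign. Leaving out day 3 ended the call for 26 of them, leaving out day 5 for 44 and leaving out day 7 for 15. The normexp background correction ended it for 39. Genes lost without each of the days included Ednrb, Cd22, Chil3, Flt1 and Tnni2. The largest losses by number came without day 5, and those genes included Il1b, Cited1, Erbb3, C1qa, C1qc, Trim21, Birc3, Cdh5 and Adgrf5.

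The IgG arm repeats CTL transfer in other mice, so the arm of CTLs alone was set beside it. Both comparisons use the same untreated arrays, so their likeness is not independent, and the difference was tested between the CTL arms directly. The guanylate-binding proteins had a median of 5.22 with IgG and 4.94 without, class II genes 4.40 and 4.95, T cell genes 2.81 and 3.03, and cytotoxic effectors 3.87 and 4.43. Cd8a differed by -0.47 with IgG against without (adjusted p = 0.372), and Gzmb -0.33 (adjusted p = 0.821).

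Between the CTL arms with and without IgG, 2 genes were called, both lower with IgG (0.0118% of 16878 genes; limma), and 3213 had an unadjusted p under 0.05. Calm4, a calmodulin-like gene of the epidermis, had levels of -3.26, -2.36 and -3.06 with CTLs alone and of -6.18, -6.41 and -6.33 with IgG, which was at least 2.21-fold lower (adjusted p = 8.37e-03). Calm4 was not well above background in the IgG arm or in untreated tumours (-6.72, -6.70 and -6.56). The other gene called was AK085112, which has no ordinary symbol and was at least 1.16-fold lower. The keratinocyte genes Krt14 and Krt5 had differences of -1.58 and -1.39 (adjusted p = 0.184 for each). The summed keratinocyte markers were 7.69 to 14.1 in untreated tumours, 8.49 to 9.75 with IgG and 6.24 to 8.92 with CTLs alone. The median keratinocyte gene was 0.93 above untreated tumours with CTLs alone, where 4 of 6 were called higher, and their part in the Calm4 result was not tested. Leaving out any day ended both calls.

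Counts of called genes against untreated tumours differed between the CTL arms over all genes, and also for cell division and vessels. Of 16878 genes tested, 1740 were called higher and 3669 lower with CTLs alone, and 1279 and 1899 with IgG. Mitosis genes had a median of -0.85 with CTLs alone, where 34 of 36 were called lower, and of -0.46 with IgG, where 8 were. In the direct difference 35 of 36 were higher with IgG and none was called (lowest adjusted p = 0.194). Endothelial genes had a median of -0.68 with CTLs alone (11 lower) and of -1.17 with IgG (18 lower), and 24 of 27 were lower with IgG in the direct difference, none called (lowest adjusted p = 0.189). With IgG, where neither was well above background on any array, Kdr was at least 1.87-fold and Rgs5 at least 1.14-fold lower than with CTLs alone, not called (adjusted p of 0.189 and 0.237). With CTLs alone Kdr was well above background on 2 of 3 arrays and Rgs5 on 1. Matrix genes had medians of -0.08 and -0.67, with 22 of 24 lower with IgG and none called.

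**Figure D5:**
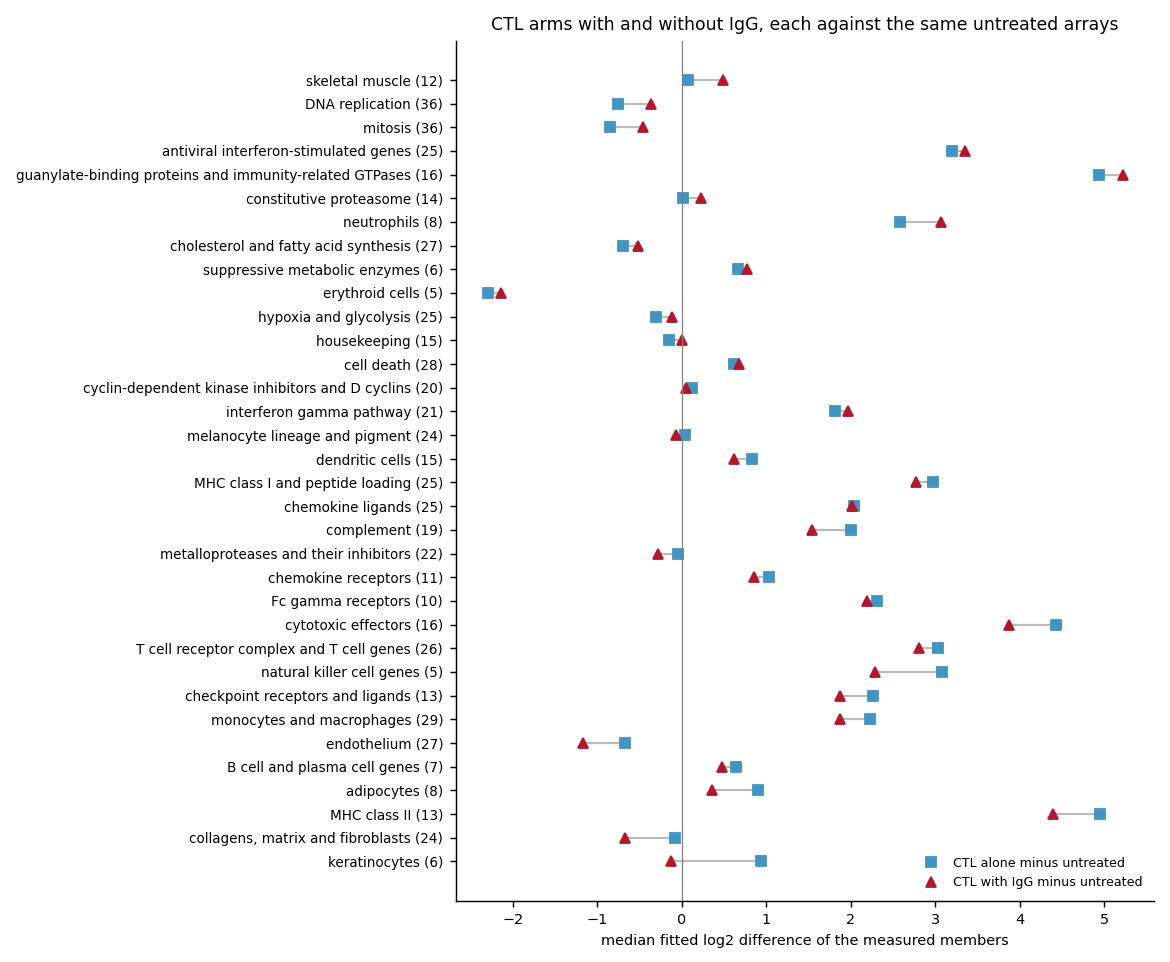
Median fitted log2 difference from untreated tumours of the measured members of each list, for CTLs alone (blue squares) and CTLs with IgG (red triangles), both against the same untreated arrays; numbers in brackets are measured members. Lists are ordered by the direct difference between the CTL arms, with keratinocyte genes lowest (0.93 without and -0.13 with IgG) and skeletal muscle highest (0.07 and 0.49).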

How the data were processed

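Arrays were Agilent 4x44K, one colour. Per the submitters' processing notes the spots were quantified with Feature Extraction 9.5 (9.5.3.1, per the file headers), and the deposited intensity values used here are the program's processed signal. The authors' deposited log2 table equals the log2 of that signal less a constant per array (r = 1, column medians -3.54 to -3.14). The median of each authors' column thus stays below 0, its 75th percentile is about 0 and its direction is that of the signal.

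From each array the 75th percentile of log2 over 43379 non-control spots was subtracted, outlier spots were left out and spots of a probe averaged. No spot was saturated. Of 41174 probes, 24375 were named by accession. A probe well above background on at least 3 of 12 arrays was kept, the brightest per gene. limma 3.58.1 (R 4.3.3) fitted arm and day. Same-day arrays deviated together (r of 0.133, 0.139 and 0.163), so the day was kept as the pairing block. "At least" folds set the bright arm against the lowest signal well above background or the probe's own, whichever is higher. On simulated data of the IgG comparison with 16872 genes, 92.0% of 4-fold and 55.0% of 2-fold changes were recovered. There, 9.26% of the genes called were not changed, above the 5% that the threshold aims at. The simulation changed far fewer genes than were called in the real comparison, and in the IgG arm alone. Its rates may therefore not hold for the real calls.

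The lists and genes were chosen with earlier results of these data known. Named were the 15 highest and 15 lowest changes that passed the test with 1 sign on all days and a detected arm, 5 and 5 for the other tests, the 4 members of each list with the smallest p, every member of lists with at most 10 measured, and a fixed panel. The motif rule covered 9 genes, of which 3 were searched (Ubd, Rgs5 and Fgf21, none with a match). Iigp1 and Pcdh12 were among the 9 and lie on chromosome 18, whose promoters were left out. The search was then widened to the 30 genes named as highest or lowest, again without that chromosome. Genes named outside these rules were chosen after their values were seen: AK085112, Apln, Calr, Canx, Casp8, Casp9, Cd3e, Cd4, Cdh5, Chil3, Col1a1, Col1a2, Col3a1, Cxcr3, Eng, Flt1, Gbp9, Icam2, Isg20, Jak1, Jak2, Mx1, Pdia3, Psmb8, Psmb9, Tap1, Tek, Tlr4, Vwf, Xcr1 and Zbtb46. Other normalizations, filters, sample sets and left-out days were tried as alternatives. Some items are not reported here.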

Additional observations from a re-analysis of the deposited data

Results flagged for a closer look

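The difference between the CTL arm with IgG and the arm of CTLs alone passed the test for 2 genes. Calm4 was at least 2.21-fold lower with IgG (fitted log2 difference -3.41, limma, adjusted p = 8.37e-03) and AK085112 at least 1.16-fold lower (fitted -1.25, adjusted p = 0.0111). The fitted differences are set against probes that were not detected, so the folds are the bounds. Both were lower with IgG on 3 of 3 days and not well above background on any IgG array. Groups of 3 arrays are too small for a test of single outlying arrays.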

How the results depend on the processing

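Counts of genes higher and lower in the IgG arm than in untreated tumours (1279 and 1899) were within 1.5 times under quantile normalization, median centring, the authors' deposited table, the mean of probes, the stricter filter, the intensity trend in the prior and without the day block (1131 and 1657). They were 627 and 340 with normexp, 647 and 510 from the 6 arrays alone, 782 and 953 with all arrays of the series, and 960 and 1047 without the filter on dim probes. Leaving out a day gave 315 to 1203 higher and 222 to 1562 lower. Between the CTL arms, where 2 genes were called, the count was 0 with normexp, 0 with the intensity trend, 1 with the filter that needs all 3 arrays of an arm, 4 with all arrays, 4 without the day block and 0 without any 1 day. Calm4 ranged over these alternatives from an adjusted p of 5.99e-04 to 0.398. Slopes over days, none called, numbered 126 with normexp and 45 with the intensity trend; with 2 days no slope could be tested. The cause of these differences was not tested. Among uncalled genes signs turned for Calm4 against untreated tumours (-0.143) and Cd4 (0.0238) with normexp, and for Pmel with the authors' table (0.0208). Leaving out a day moved Cd4 from -0.175 to 0.135, Cd79a from -0.351 to 0.0921, Fcgrt from -0.273 to 0.299, Klra3 from -0.38 to 1.15, Krt14 from -0.183 to 0.00198 and Pmel from -0.216 to 0.148.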
